A study of Oryza sativa with 2 samples.

Results

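Single nuclear loci of 70 to 99 nt are short intervals of the rice (Oryza sativa) genome to which reads of non-coding RNA were assigned and which had no other listed locus within 500 nt on the same strand. They numbered 245 of 1349 loci in all. They were chosen by position and length alone: chromosomes 1 to 12 only, a length (end minus start) of 70 to 99 nt, and a position outside 3 stretches of chromosomes 1, 4 and 10, which were set aside with their 90 loci. The series measured RNA of 50 to 500 nt by pyrosequencing, with adaptors ligated to both RNA ends and no amplification of the cDNA. Stage 2 was labelled anther, pistil and grouting embryo, and stage 1 was labelled coleoptiles, radicals, shoot and tillering leaves. Each stage had 1 library of several tissues, and the labels used here do not say whether tissues were pooled as material or as RNA, nor do they name a cultivar or an age. The lists name no genes, so the labelled tissues were not checked against marker genes.

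RNAs of this size in plants include transfer RNAs, which carry amino acids to the ribosome, and small nucleolar RNAs (snoRNAs). The box C/D class of snoRNAs is usually shorter than the box H/ACA class. Box C/D snoRNAs guide ribose methylation of ribosomal RNA and box H/ACA snoRNAs guide conversion of uridine to pseudouridine. In plants many snoRNA genes lie close together and are transcribed as a unit, and others lie alone or in introns. No annotation of the files' genome build was used here, so no locus below is called a snoRNA or a tRNA or placed in a gene, exon or intron. Positions are those of the deposited lists, their genome build not given in the sources used here. Starts were raised by 1, taking the lists to be in BED format.

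The stage 2 list held 117798 reads at 1163 loci and the stage 1 list 80651 reads at 838 loci. With 1 library per stage no value has a replicate error, every comparison is between 2 libraries, and all intervals cover counting error only. They treat reads as independent and would be too narrow if a read was counted at several loci. Reads were scaled to a total of 1000000 over each whole list (RPM). A count of 0 allows up to 3 reads, or 25.5 RPM in stage 2 and 37.2 RPM in stage 1. In RPM the median of the 483 loci that reached 20 reads, both libraries summed, was 1.39-fold higher in stage 2, a log2 ratio of 0.47, so ratios are also given scaled to that median locus.

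Single nuclear loci of 70 to 99 nt were weakly read as a set, and their reads took a larger share of stage 2 than of stage 1. They held 3513 reads in stage 2 (2.98% of the list) and 1284 reads in stage 1 (1.59%). The ratio of stage 2 to stage 1 RPM was 1.87 (95% interval 1.76 to 2.00), or 1.35 (1.27 to 1.44) when scaled to the median locus. All other loci together had a ratio of 0.986 (0.977 to 0.995) in RPM, or 0.710 (0.704 to 0.717) when scaled. They held 97.0% of the stage 2 reads and 98.4% of the stage 1 reads, so RPM scaling sets their summed ratio near 1. The median log2 ratio in RPM of those with at least 20 reads was 0.46. The median of the set was 3 reads per locus over both libraries, against 7 for all other loci. Of the 245 loci, 28 (11.4%) had at least 20 reads, against 455 (41.2%) of the 1104 other loci.

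A few loci held most of these reads. The 28 loci with at least 20 reads, called strongly read below, held 82.6% of the set's stage 2 reads and 86.9% of its stage 1 reads. The 10 strongest held 59.2% in stage 2 and 62.5% in stage 1. JNnc_loci0278 alone held 658 of the 3513 reads in stage 2 and 192 of the 1284 in stage 1. The 156 loci with 2 or 3 reads held 8.45% in stage 2 and 6.70% in stage 1. Without the 10 strongest loci the ratio of the set was 2.04 (1.84 to 2.26).

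**Figure D1:**
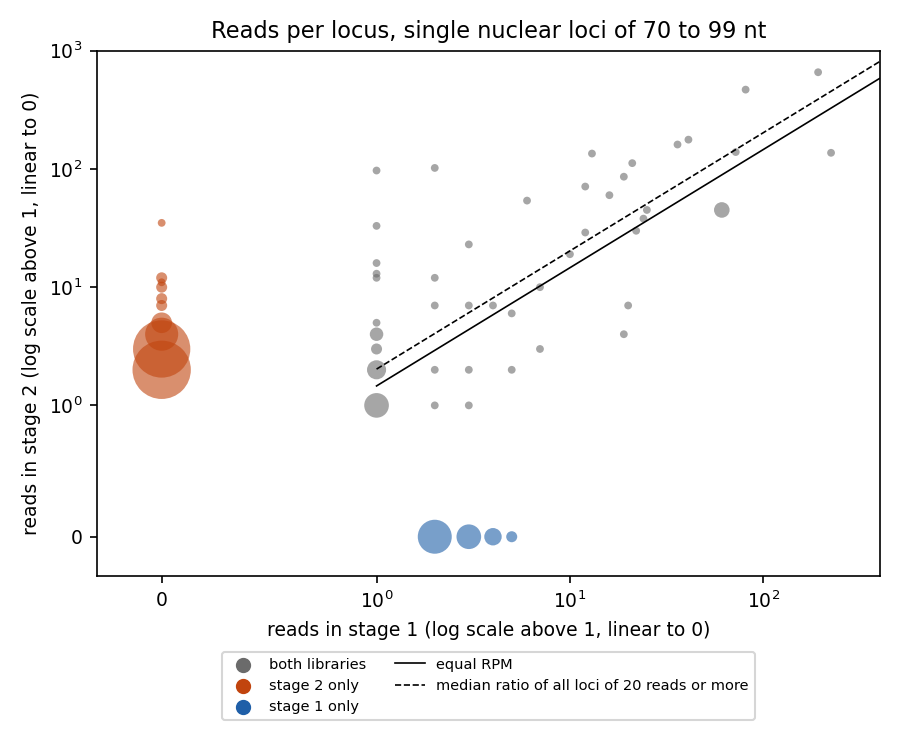
Reads in stage 2 (vertical axis) against reads in stage 1 (horizontal axis) for the 245 loci, on axes that are logarithmic above 1 read and linear down to 0; the area of a point is proportional to the number of loci with that pair of counts. The solid line marks equal RPM and the dashed line the median ratio of all loci with at least 20 reads; the largest points are loci with 2 or 3 reads in stage 2 and 0 in stage 1.

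Listing at each stage followed read number closely. Over the whole set 64 loci (26.1%, Clopper-Pearson interval 20.7 to 32.1) were listed in both libraries. Stage 2 alone listed 145 (59.2%, 52.7 to 65.4), and stage 1 alone listed 36 (14.7%, 10.5 to 19.8). Over all 1349 loci these shares were 48.3%, 37.9% and 13.8%. Of the 28 strongly read loci, 27 (96.4%, 81.7 to 99.9) were in both libraries, and the exception, JNnc_loci1105, was in stage 2 only. Of the 217 loci under 20 reads, 37 (17.1%, 12.3 to 22.7) were in both, stage 2 alone listed 144 and stage 1 alone listed 36. Over all loci, 98.6% of those with at least 20 reads and 20.3% of those with fewer were in both libraries. Read number and listing come from the same counts, so no test was made of this contrast.

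The share in both libraries was higher in each class of more reads, with the widest step between 4 to 9 and 10 to 19 reads. It was 10.9% for 156 loci with 2 or 3 reads, 23.4% for 47 loci with 4 to 9, 64.3% for 14 loci with 10 to 19, 92.9% for 14 loci with 20 to 99 and 14 of 14 for those with 100 or more. Among all loci the same classes gave 8.46%, 36.7%, 74.7%, 96.3% and 99.7%. No locus of the set with 10 or more reads was listed in stage 1 only, and the same held for all loci of the series. The weakest loci were nearly always in a single list: of the 85 with exactly 2 reads, 56 had both reads in stage 2, 19 had both in stage 1 and 10 had a read in each. Of the 71 with 3 reads, 54 had all in stage 2, 10 had all in stage 1 and 7 were split. Among all loci with 2 reads, 65.8% had both in stage 2 and 27.7% both in stage 1, beside 65.9% and 22.4% in the set. With 3 reads the share with all in stage 2 was 76.1% in the set and 64.9% among all loci.

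**Figure D2:**
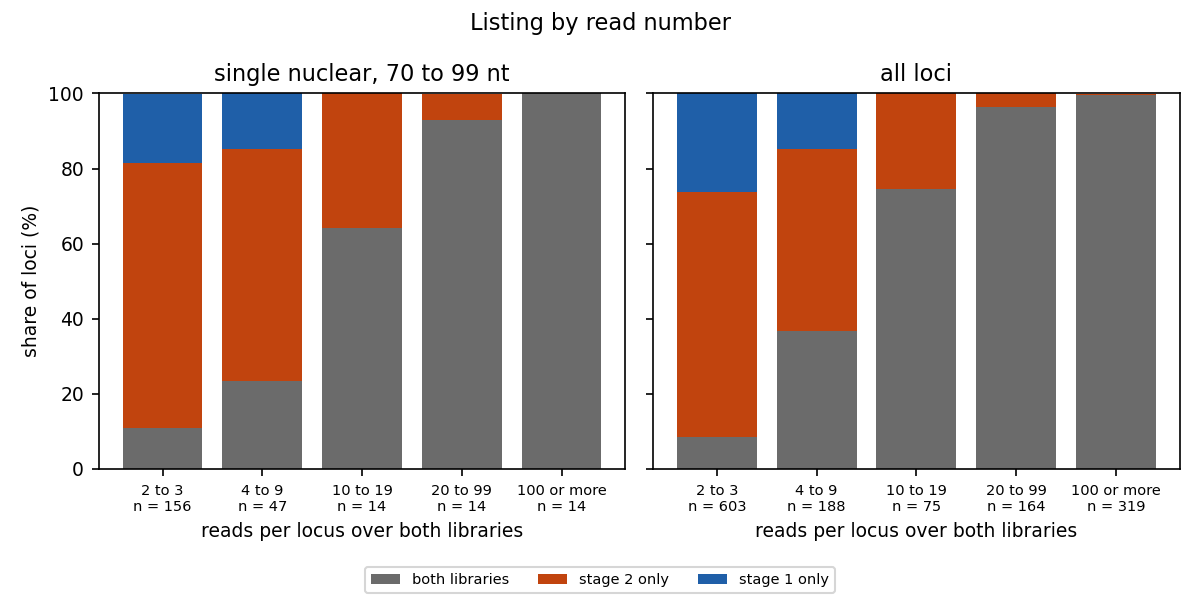
Share of loci (vertical axis, percent) listed in both libraries, in stage 2 only or in stage 1 only, by reads per locus over both libraries (horizontal axis), for single nuclear loci of 70 to 99 nt (left) and for all loci (right). In the left panel the share in both libraries goes from 10.9% at 2 or 3 reads to all 14 loci at 100 reads or more.

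Loci listed in a single library had few reads. The 145 in stage 2 only had 2 to 35 reads each (median 3), and 110 of them had 2 or 3. The 36 in stage 1 only had 2 to 5 reads each (median 2), and 29 of them had 2 or 3. Stage 2 was also the deeper list, and the part of depth in the unequal numbers was not tested. When a locus had to have 3 reads in a library to be listed there, stage 2 alone listed 103, stage 1 alone listed 20, and both listed 29. Shares over all loci are not given at that minimum, so these numbers describe the set only.

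Of the loci in stage 2 only, 6 reached 10 reads, and 4 of the 6 lay on the plus strand of chromosome 10. Stage 2 alone listed 5 of 14 loci of the set with 10 to 19 reads, beside 19 of 75 among all loci. With 20 to 99 reads it alone listed 1 of 14, beside 6 of 164, and with 100 or more 0 of 14, beside 1 of 319. JNnc_loci1105 (86 nt, chromosome 10, 12722626 to 12722711) had 35 stage 2 reads and 0 stage 1 reads, at least 7.99-fold higher against the floor of 3 reads, or at least 5.76-fold when scaled to the median locus. JNnc_loci1109 (81 nt, chromosome 10, 12725709 to 12725789) and JNnc_loci1118 (87 nt, chromosome 10, 13968719 to 13968805) had 12 stage 2 reads each and 0 stage 1 reads. Both were at least 2.74-fold higher, and 1.97-fold after scaling. JNnc_loci0300 (70 nt, chromosome 3) had 11 reads in stage 2 and 0 in stage 1, and JNnc_loci1098 (97 nt, chromosome 10) and JNnc_loci1273 (82 nt, chromosome 12) had 10 each in stage 2 and 0 in stage 1. Their bounds of 2.51, 2.28 and 2.28 were 1.81, 1.64 and 1.64 after scaling. These bounds leave out the counting error of the stage 2 reads.

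The other 9 loci with 10 to 19 reads were in both libraries. JNnc_loci0891 (72 nt, chromosome 7) had 16 reads in stage 2 and 1 in stage 1, JNnc_loci0004 (72 nt, chromosome 1) 13 and 1, and JNnc_loci0187 (70 nt, chromosome 2) 12 and 1. These 3 were among the shortest of the set, and all lay on the minus strand. JNnc_loci0670 (94 nt, chromosome 5), with 3 reads in stage 2 and 7 in stage 1, was the 1 locus of the 9 with a higher raw count in stage 1. In RPM its ratio was 0.293, and JNnc_loci0771 at 0.822 and JNnc_loci0379 at 0.978 were also under 1. Each of these intervals held 1.

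Strongly read loci differed in direction, with more of them higher in stage 2. In RPM, 15 of the 28 were at least 2-fold higher in stage 2, where 32.9% of all loci with at least 20 reads were, and 3 were at least 2-fold lower, where 11.6% of all such loci were. Scaled to the median locus, 13 of the 28 were at least 2-fold higher (18.2% of all loci). At least 2-fold lower after scaling were 7 (22.2% of all loci), so the split depends on the scaling. The 4 loci that scaling added to those lower are of 73 nt on chromosome 7 and have equal counts. Each was at 0.505 in RPM and 0.364 after scaling. Counting intervals lay above 1 for 15 of the 28 (48.4% of all loci) and below 1 for 7 (22.8%) in RPM. After scaling the numbers were again 15 (30.4% of all loci) and 7 (34.6%). With loci of equal length and counts entered once, 25 loci remained, with 15 intervals above 1 and 4 below in RPM. The median log2 ratio of the 28 was 1.28 in RPM, a ratio of 2.42, and 0.81 after scaling. The weakly read loci, with 612 reads in stage 2 and 168 in stage 1, had a summed ratio of 2.49 (2.10 to 2.98), or 1.80 (1.51 to 2.14) after scaling. That sum was also above 1 with loci of equal length and counts entered once, at 2.00 (1.64 to 2.44). Over all loci under 20 reads the summed ratio was above 1 too, at 1.72 (1.60 to 1.85), or 1.24 (1.16 to 1.34) after scaling.

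**Figure D3:**
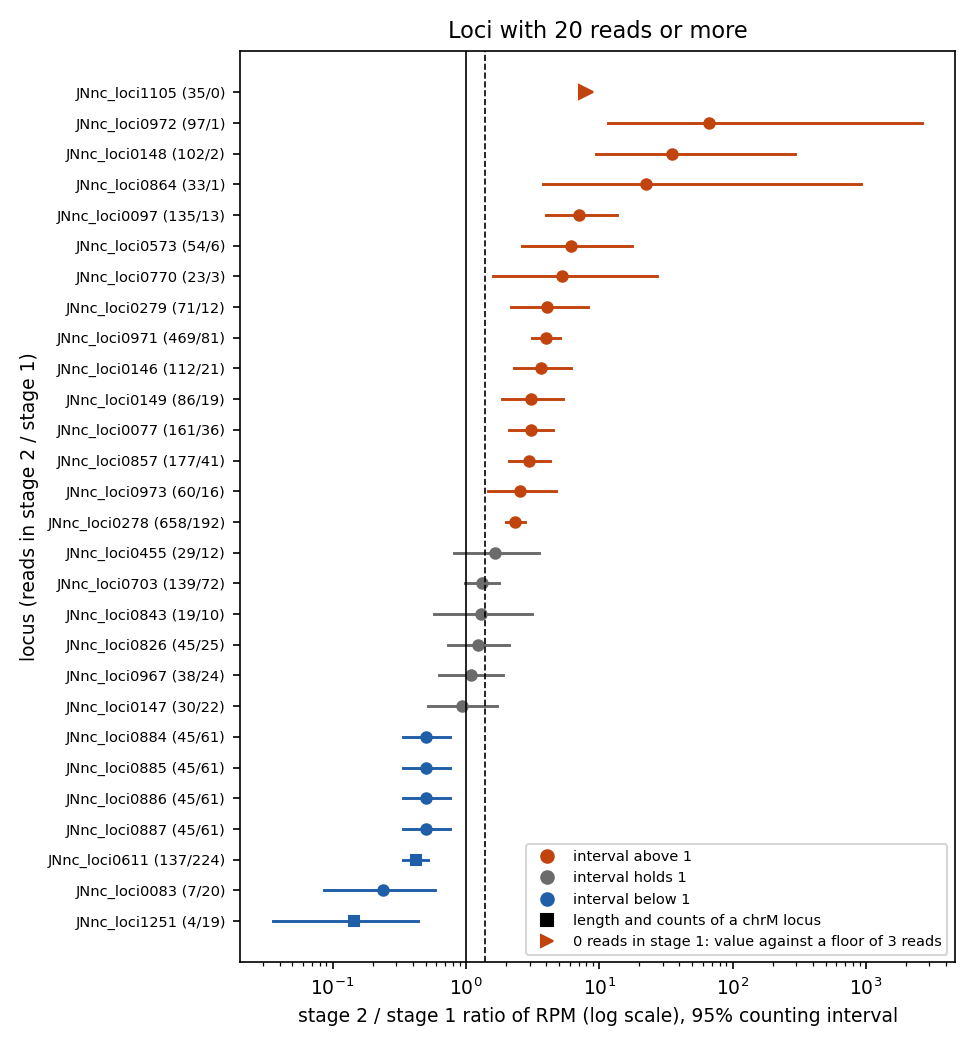
Ratio of stage 2 to stage 1 RPM (horizontal log axis) with its 95% counting interval for the 28 loci with at least 20 reads (vertical axis, with reads in stage 2 and stage 1 after the name). The solid line marks 1 and the dashed line the median of 1.39 over all loci with at least 20 reads; 15 loci lie above 1 with their interval or bound and 7 below it, and squares mark loci with the length and counts of a chrM locus.

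JNnc_loci0278 and JNnc_loci0971 were the strongest loci of the set. JNnc_loci0278 (89 nt, minus strand of chromosome 2, 35250921 to 35251009) had 658 stage 2 reads and 192 stage 1 reads, or 5586 and 2381 RPM. Its ratio was 2.35 (1.99 to 2.77), and 1.69 (1.44 to 2.00) when scaled. The nearest locus on its strand lay 334778 nt away. JNnc_loci0971 (84 nt, minus strand of chromosome 8, 18374023 to 18374106) had 469 stage 2 reads and 81 stage 1 reads, a ratio of 3.96 (3.13 to 5.08), and 2.86 (2.25 to 3.66) when scaled. Both were thus above the median locus in stage 2 by more than counting error.

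Further strong loci were also higher in stage 2, and some lay far from any locus on their strand. JNnc_loci0857 (81 nt, chromosome 7, 7107832 to 7107912) had 177 stage 2 reads and 41 stage 1 reads, a ratio of 2.96 (2.09 to 4.26). JNnc_loci0077 (74 nt, chromosome 1, 28887715 to 28887788) had 161 stage 2 reads and 36 stage 1 reads, a ratio of 3.06 (2.12 to 4.53). The nearest loci on their strands lay 1082677 nt from JNnc_loci0857 and 1216443 nt from JNnc_loci0077. JNnc_loci0097 (82 nt, chromosome 1, 32460392 to 32460473) had 135 stage 2 reads and 13 stage 1 reads, a ratio of 7.11 (4.02 to 13.7). The neighbour of JNnc_loci0097, JNnc_loci0096 of 104 nt, lay 3313 nt away and had 159 reads in stage 2 and 92 in stage 1, a ratio of 1.18. JNnc_loci0703 (88 nt, chromosome 5, 26841160 to 26841247) had 139 stage 2 reads and 72 stage 1 reads. Its ratio of 1.32 (0.987 to 1.78) did not differ from 1 beyond counting error, and turned to 0.952 (0.711 to 1.28) when scaled.

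Among loci with reads in both libraries, the 3 highest ratios rested on 1 or 2 reads in stage 1 and had wide intervals. JNnc_loci0972 (85 nt, chromosome 8) had 97 reads in stage 2 and 1 in stage 1, a ratio of 66.4 (11.6 to 2650). JNnc_loci0148 (91 nt, chromosome 1) had 102 reads in stage 2 and 2 in stage 1, a ratio of 34.9 (9.42 to 292). JNnc_loci0864 (85 nt, minus strand of chromosome 7, 13119599 to 13119683) had 33 stage 2 reads and 1 stage 1 read, a ratio of 22.6 (3.78 to 919). The intervals of these 3 loci overlap, so their order is not resolved. JNnc_loci0770 (82 nt, chromosome 6, 20059526 to 20059607), which among the 28 lay farthest from any locus on its strand, at 3223622 nt, had 23 reads in stage 2 and 3 in stage 1, a ratio of 5.25 (1.59 to 27.3).

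The loci lower in stage 2 were fewer, and most share their counts with other loci. JNnc_loci0611 (95 nt, minus strand of chromosome 4, 32712541 to 32712635) had 137 stage 2 reads and 224 stage 1 reads, a ratio of 0.419 (0.336 to 0.520), and more stage 1 reads than any other locus of the set. Its length and both counts are those of 5 loci on chrM, the mitochondrial chromosome of rice assemblies. JNnc_loci1251 (89 nt, chromosome 12, 20621063 to 20621151) had 4 stage 2 reads and 19 stage 1 reads, as did 1 chrM locus of the same length. JNnc_loci0083 (76 nt, plus strand of chromosome 1, 30276999 to 30277074) had 7 stage 2 reads and 20 stage 1 reads, a ratio of 0.240 (0.0856 to 0.590). It shares its length and counts with no organelle locus and no other locus of the set. The 4 remaining loci below 1 lay together on chromosome 7.

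Those 4 loci, JNnc_loci0884, JNnc_loci0885, JNnc_loci0886 and JNnc_loci0887, were the only group of equal length and equal counts with at least 20 reads in the set. Each was 73 nt long, on the plus strand of chromosome 7 between 20260866 and 20310106, with 45 reads in stage 2 and 61 in stage 1. The distances from each locus to its nearest neighbour were 12660 nt for the first pair, 18144 nt for JNnc_loci0886 and 18145 nt for JNnc_loci0887. The ratio was 0.505 (0.336 to 0.755), or 0.364 (0.242 to 0.544) when scaled. Whether the same reads were counted at all 4 positions was not tested, so they are not read here as separate measurements. They make up 4 of the 7 intervals below 1.

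Several strongly read loci of the set lay near another listed locus, which was not always in the set or strongly read. Of the 28, 15 (53.6%) had another listed locus within 10000 nt on the same strand, against 30 of the 217 weakly read loci (13.8%). Over all loci these shares were higher, at 74.7% with at least 20 reads and 33.3% with fewer. The set leaves out every locus with a neighbour within 500 nt on its strand, so its lower shares follow from the rule. Over all loci with at least 20 reads the median distance to the nearest locus was 200 nt. The 15 had 1439 reads in stage 2 and 328 in stage 1, or 12216 and 4067 RPM, a ratio of 2.16 (1.92 to 2.45) after scaling. In RPM 10 of their intervals lay above 1 and 2 below, where 48.4% and 22.8% of all loci with at least 20 reads did. The other 13 had 1462 reads in stage 2 and 788 in stage 1, with 5 intervals above 1 and 5 below. Their summed ratio was 1.27 (1.16 to 1.39) in RPM and, on the other side of 1, 0.915 (0.839 to 0.999) after scaling. The 4 equal loci of chromosome 7 and JNnc_loci0611 are the 5 of these 13 with an interval below 1. Without JNnc_loci0611 the scaled ratio was 1.16 (1.05 to 1.28), and without the 4 equal loci it was also 1.16 (1.05 to 1.29). Without all 5, the remaining 8 loci had 1145 reads in stage 2 and 320 in stage 1, a ratio of 2.45 (2.16 to 2.78) in RPM and 1.77 (1.56 to 2.00) after scaling. The loci left out were those with an interval below 1, so a higher ratio of the rest follows from that choice. With the 4 equal loci entered once instead, 10 loci remained, and the interval of their summed ratio was 1.36 to 1.66 in RPM. After scaling that ratio was 1.08 (0.982 to 1.19), with an interval that held 1. The distance of 10000 nt was chosen after the values were seen, and no test was made.

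**Figure D4:**
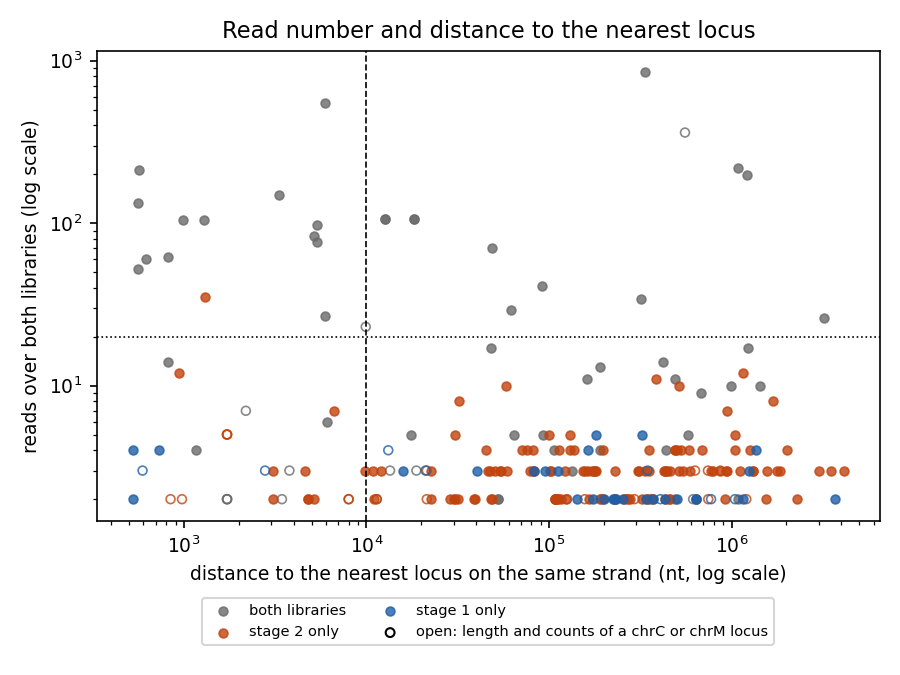
Reads over both libraries (vertical log axis) against the distance to the nearest locus on the same strand (horizontal log axis, nt) for the 245 loci, coloured by listing, with open points for loci with the length and counts of a chrC or chrM locus. The dotted line marks 20 reads and the dashed line 10000 nt; 15 of the 28 loci at or above 20 reads lie left of the dashed line.

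On chromosome 1, 4 loci of the set followed each other on the plus strand within 3170 nt, from 41134851 to 41138020, each more than 500 nt from the next. JNnc_loci0146 (78 nt) had 112 reads in stage 2 and 21 in stage 1, a ratio of 3.65 (2.28 to 6.13). JNnc_loci0147 (83 nt) had 30 reads in stage 2 and 22 in stage 1, a ratio of 0.934 (0.521 to 1.70). JNnc_loci0149 (83 nt) had 86 reads in stage 2 and 19 in stage 1, a ratio of 3.10 (1.87 to 5.40). JNnc_loci0148, with 102 reads in stage 2 and 2 in stage 1, lay between JNnc_loci0147 and JNnc_loci0149. The stage 1 reads of 3 of these loci were thus close, at 19 to 22, while their stage 2 reads ran from 30 to 112. Together the 4 had 330 reads in stage 2 and 64 in stage 1, a ratio of 3.53 (2.69 to 4.69), or 2.54 (1.94 to 3.38) when scaled.

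On the minus strand of chromosome 8, 3 loci of the set lay within 32664 nt, from 18374023 to 18406686, and each was higher in stage 2. JNnc_loci0971 and JNnc_loci0972 are given above. JNnc_loci0973 (88 nt, 18406599 to 18406686) had 60 stage 2 reads and 16 stage 1 reads, a ratio of 2.57 (1.46 to 4.78). Together the 3 had 626 reads in stage 2 and 98 in stage 1, a ratio of 4.37 (3.53 to 5.47). Elsewhere on that strand, JNnc_loci0966 (78 nt) and JNnc_loci0967 (79 nt) lay 816 nt apart, with 12 and 38 reads in stage 2 and 2 and 24 reads in stage 1. The ratio of JNnc_loci0967 was 1.08 (0.634 to 1.89).

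Chromosome 10 held neighbouring stretches with opposite listing. Between 12722626 and 12728590 on the plus strand, 7 loci had 83 reads in stage 2 and 2 in stage 1, and 6 of the 7 were in stage 2 only. JNnc_loci1105 and JNnc_loci1109 are the 2 of these that belong to the set. The others lay within 500 nt of a neighbour. After a distance of 64967 nt followed JNnc_loci1112 (85 nt), JNnc_loci1113 (84 nt) and JNnc_loci1114 (83 nt), all in the set, with 0 reads in stage 2 and 4, 2 and 4 reads in stage 1. Such counts are at or near the floor of 3 reads, so the difference of the last 3 loci between libraries is not resolved one by one. This stretch was chosen after its values were seen.

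Loci of the set could also lie just outside a cluster. JNnc_loci0703 lay 566 nt from a cluster of 3 loci of 88 to 90 nt, whose strongest, JNnc_loci0700, had 549 reads in stage 2 and 219 in stage 1, a ratio of 1.72. JNnc_loci0573 (82 nt, chromosome 4, 25202671 to 25202752) lay 619 nt from JNnc_loci0572 of 137 nt. JNnc_loci0573 had 54 reads in stage 2 and 6 in stage 1, a ratio of 6.16 (2.65 to 17.5), beside 142 reads in stage 2 and 16 in stage 1, a ratio of 6.08, for JNnc_loci0572. Just inside the 500 nt limit, and so not in the set, JNnc_loci0654 and JNnc_loci0655 of 74 nt lay 478 nt apart with 292 and 25 reads in stage 2 and 108 and 15 in stage 1. Just beyond it, JNnc_loci1112 and JNnc_loci1113 lay 523 nt apart.

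Of the 4 strongly read loci not yet named, JNnc_loci0279 (74 nt, chromosome 2) had 71 reads in stage 2 and 12 in stage 1, a ratio of 4.05 (2.18 to 8.21). It lay on the plus strand, 16144 nt from JNnc_loci0278 on the minus strand. JNnc_loci0455 (87 nt, chromosome 3) had 29 reads in stage 2 and 12 in stage 1. JNnc_loci0826 (96 nt, chromosome 6) had 45 reads in stage 2 and 25 in stage 1. JNnc_loci0843 (72 nt, chromosome 7) had 19 reads in stage 2 and 10 in stage 1. The intervals of JNnc_loci0455, JNnc_loci0826 and JNnc_loci0843 held 1, with ratios of 1.65, 1.23 and 1.30.

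Repeated values were common among the weakly read loci. Of the 245 loci, 142 fell into 49 groups that shared a length and both counts, and 122 of the 142 had 2 or 3 reads, for which few pairs of counts are possible. With each group entered once, 152 loci remained. Both libraries listed 50 of them, stage 2 alone 74 and stage 1 alone 28. The same counts over all loci are not given here, so no contrast with the series is drawn from them. The largest groups held 7 loci. JNnc_loci0041, JNnc_loci0053 and JNnc_loci1125, of 84 nt with 4 reads in stage 2 and 1 in stage 1, are an example with more than 3 reads on 2 chromosomes. JNnc_loci0993, JNnc_loci1000, JNnc_loci1032 and JNnc_loci1222, of 86 nt with 4 reads in stage 2 and 0 in stage 1, lay on 3 chromosomes.

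Some loci had the length and both counts of an organelle locus, although the set is nuclear. There were 42 among the 245 loci, of which 34 matched a locus of chrC, the chloroplast chromosome, and 8 a locus of chrM. Such matches also occurred outside the set, as 205 of all 1349 loci, a count that includes the set, had one. Among nuclear loci of 70 to 99 nt in clusters of 2 to 4, 3 of 128 had one. Among single nuclear loci of 100 nt or more but under 150 nt, 14 of 152 did. Both of these parts had a higher median of reads per locus than the set, and the contrast was not tested. Among loci with 2 or 3 reads the numbers were 35 of 156 in the set and 147 of 603 over all loci. Of the 42, 35 had 2 or 3 reads, 5 had 4 to 7 and 2 had at least 20. The 2 are JNnc_loci0611 and JNnc_loci1251. The 42 held 213 reads in stage 2 and 278 in stage 1, a ratio of 0.525 (0.437 to 0.629) that rested mostly on JNnc_loci0611. Without JNnc_loci0611 the other 41 held 76 and 54 reads, a ratio of 0.964 (0.671 to 1.39). The 40 under 20 reads held 72 and 35, a ratio of 1.41 (0.928 to 2.17). Of the 42, 23 were in stage 2 only, 8 in stage 1 only and 11 in both. The other 203 loci held 3300 reads in stage 2 and 1006 in stage 1, a ratio of 2.25 (2.09 to 2.41), or 1.62 (1.51 to 1.74) when scaled, and of their 26 strongly read loci 15 were higher by 2-fold or more and 1 was lower by as much, beside 32.9% and 11.6% of all loci of that read number.

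For 4 pairs of these loci the distance between starts also came within 10 nt of that on chrC. JNnc_loci1304 (81 nt, 5 reads in stage 2 and 0 in stage 1) and JNnc_loci1305 (73 nt, 1 read in each) start 1800 nt apart on chrC. The same lengths and counts recurred at JNnc_loci1018 and JNnc_loci1019 on chromosome 9, 1800 nt apart. They recurred at JNnc_loci1211 and JNnc_loci1212 on chromosome 12, 1801 nt apart, and at JNnc_loci0963 and JNnc_loci0962 on the minus strand of chromosome 8, 1799 nt apart. On chromosome 10, JNnc_loci1136 (94 nt, 2 reads in stage 2 and 5 in stage 1) and JNnc_loci1140 (89 nt, 0 and 4) start 13255 nt apart, against 13261 nt for their partners JNnc_loci1299 and JNnc_loci1294 on chrC. Whether the same reads were counted on chrC and on the nuclear chromosomes was not tested.

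Length within the set ranged from 70 to 99 nt with a median of 83 nt (quartiles 76 and 88). The median was 82.5 nt for strongly read and 83 nt for weakly read loci. Loci of 80 to 84 nt were the most numerous, at 61 of 245 (24.9%), followed by 53 of 70 to 74 nt (21.6%) and 44 of 85 to 89 nt. The next were 36 of 75 to 79 nt, 28 of 90 to 94 nt and 23 of 95 to 99 nt. Among all nuclear loci of 70 to 99 nt, 23.2% were of 80 to 84 nt and 16.3% of 70 to 74 nt. Strongly read loci numbered 7, 3, 7, 8, 1 and 2 in the 6 classes from short to long. At the edges of the rule, single nuclear loci of 69 nt numbered 10 with 20 reads in stage 2 and 8 in stage 1. Those of 70 nt numbered 11 with 45 reads in stage 2 and 1 in stage 1, those of 99 nt 5 with 12 and 2 reads, and those of 100 nt 3 with 117 and 36 reads.

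Listing and reads varied along this range. Of the 53 loci of 70 to 74 nt, 34 were in stage 2 only and 1, JNnc_loci0007 of 73 nt, in stage 1 only. Among all 76 nuclear loci of that length, 37 were in stage 2 only and the same 1 in stage 1 only. Groups of equal length and counts were among the 34, so these are not all read as separate measurements. The largest group held 7 loci of 71 nt, with 2 reads in stage 2 and 0 in stage 1, as at 1 chrC locus. In the 5 longer classes of the set, which held 23 to 61 loci each, stage 1 only loci numbered 5 to 10. Among all nuclear loci these classes held 38 to 108 loci each, with 5 to 17 in stage 1 only. Loci of 80 to 84 nt had 1130 reads in stage 2 and 230 in stage 1, a ratio of 3.36 (2.92 to 3.89), and 3.04 (2.54 to 3.65) without JNnc_loci0971. Loci of 85 to 89 nt had 1138 reads in stage 2 and 355 in stage 1, a ratio of 2.19 (1.95 to 2.48), and 2.02 (1.68 to 2.42) without JNnc_loci0278. Loci of 70 to 74 nt had 587 reads in stage 2 and 315 in stage 1, a ratio of 1.28 (1.11 to 1.47), or 0.919 (0.800 to 1.06) after scaling. The 4 equal loci of chromosome 7 gave 180 and 244 of these reads, and without them the ratio was 3.92 (3.04 to 5.12). Without JNnc_loci0077, the strongest locus of this class, the ratio was instead 1.05 (0.897 to 1.22), or 0.753 after scaling. In the remaining classes the ratio moved with single loci. Loci of 95 to 99 nt had 230 reads in stage 2 and 267 in stage 1, a ratio of 0.590 (0.492 to 0.706), and without JNnc_loci0611 it was 1.48 (1.02 to 2.18). Loci of 90 to 94 nt had 180 reads in stage 2 and 33 in stage 1, a ratio of 3.73 (2.57 to 5.59), which was 1.72 (1.12 to 2.70) without JNnc_loci0148. Loci of 75 to 79 nt, at 248 and 84 reads, had a ratio of 2.02 (1.57 to 2.62), which was 1.48 (1.09 to 2.03) without JNnc_loci0146.

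**Figure D5:**
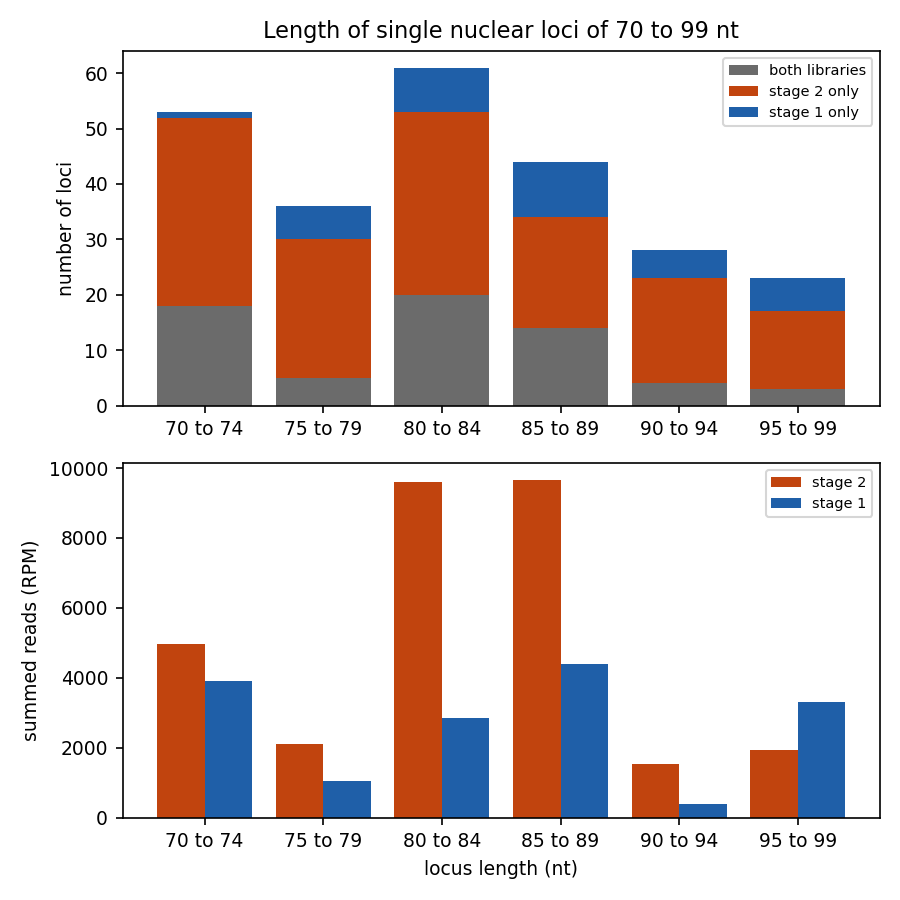
Number of loci by listing (upper panel) and summed reads in RPM in stage 2 and stage 1 (lower panel) by length class (horizontal axis, nt) for the 245 loci. Loci of 80 to 84 nt were the most numerous at 61, and the class of 95 to 99 nt, which holds JNnc_loci0611, is the only one drawn with more RPM in stage 1. Scaled to the median locus the class of 70 to 74 nt also has a ratio under 1, at 0.919.

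Loci of the set lay on all 12 nuclear chromosomes and about equally on both strands, 123 on the plus and 122 on the minus strand. Chromosome 1 held the most, 33, of which 7 were strongly read, and chromosome 11 the fewest, 8. Chromosome 7 also had 7 strongly read loci, 4 of them the equal loci. Chromosome 9 held 17 of the 245 (6.94%), against 3.51% of all nuclear loci, and no locus of the set there reached 20 reads. In RPM, chromosome 4 was the only chromosome with a summed ratio under 1, at 262 reads in stage 2 and 246 in stage 1 (0.729, 0.610 to 0.871), and without JNnc_loci0611 it was at 3.89 (2.46 to 6.43). After median scaling 4 chromosomes were under 1: chromosome 4 at 0.525, chromosome 7 at 0.745, chromosome 12 at 0.802 and chromosome 5 at 0.999. The sum of chromosome 7, 1.03 (0.892 to 1.20), was 0.734 (0.618 to 0.872) without JNnc_loci0857 and 3.18 (2.40 to 4.28) without the 4 equal loci, which left 279 reads in stage 2 and 60 in stage 1. The sum of chromosome 10, 2.74 (1.72 to 4.53), was 1.70 (1.03 to 2.89) without JNnc_loci1105. That of chromosome 12, 1.11 (0.703 to 1.79), was 2.53 (1.35 to 5.09) without JNnc_loci1251.

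The set had a lower median of reads per locus than clustered loci of the same length and than longer single loci. Nuclear loci of 70 to 99 nt in clusters of 2 to 4 numbered 128, with the same median length of 83 nt, and 118 of them (92.2%, 86.1 to 96.2) were in both libraries. Their median was 159 reads, and 107 (83.6%) had at least 20. Single nuclear loci of 100 nt or more but under 150 nt numbered 152, of which 76 (50.0%, 41.8 to 58.2) were in both libraries, with a median of 6 reads. In RPM the clustered loci had a ratio of 1.36 (1.33 to 1.39) and the longer single loci 0.967 (0.948 to 0.987), beside 1.87 for the set. The median log2 ratio of strongly read loci was 0.58 over 107 clustered loci and 0.29 over 62 longer single loci, beside 1.28 over the 28. Without replicates these differences were not tested, and counting intervals do not cover differences between preparations. Across the 64 loci of the set in both libraries, log2 reads had a Pearson r of 0.77 and a Spearman rho of 0.73. The loci share their libraries and some share counts, so this is a description only.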

How the data were processed

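Per the labels' protocols, RNA of 50 to 500 nt was ligated to adaptors and reverse transcribed without amplification. The authors deposited 1 list per library, whose whole numbers in column 5 were read, from their values, as raw read counts per locus. Further steps (aligner, genome build, locus rule, treatment of reads with several matches) were not given in the sources used here.

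The lists were joined by locus name, and absence from a list was counted as 0 reads. Ratios of RPM carry exact conditional binomial 95% intervals, shares exact Clopper-Pearson intervals, and 0.5 reads were added for log2 ratios. Scripts were tested on simulated data. Strongly read means at least 20 reads over both libraries. Loci within 500 nt of each other on 1 strand formed a cluster. Loci named by rule were the 10 with most reads in each library, the 5 highest and 5 lowest ratios among strongly read loci, those of a single list with at least 10 reads and equal groups of at least 20 reads. Other loci, the 10000 nt distance and runs of at least 3 loci at most 30000 nt apart were chosen after values were seen. Members and lists were chosen with earlier results of these data known. Alternatives covered the isolation distance, strand, length, scaling, read minimum, fold and repeated values. Python 3.11.15, numpy 2.4.6, pandas 2.3.3, scipy 1.17.1 and matplotlib 3.10.9 were used.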

Additional observations from a re-analysis of the deposited data

How the results depend on the processing

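Of 84 alternative values for the set, 72 kept their direction and their side of 1, or stayed within 1.5 times a count or within the interval, and the summed ratio of 1.87 ran from 1.35 under median scaling to 2.25 without loci of organelle length and counts. With isolation at 200 nt, 97 loci were in both libraries in place of 64. At 3 reads or more, 29 were in both and 20 in stage 1 only, in place of 36. Entering equal loci once left 74 in stage 2 only, in place of 145. The number at least 2-fold higher was 24 at a minimum of 10 reads, in place of 15. The number at least 2-fold lower, 3, was 7 under median scaling and under totals without the 10 strongest loci of each library. It was also 7 at 1.5-fold and by intervals. The 4 equal loci of chromosome 7 made the rise to 7 each time. The number was 1 at a minimum of 50 reads or without loci of organelle length and counts. Strongly read loci were in both libraries in 100% of cases at a minimum of 50 reads. Of 69 values for named loci, 1 changed direction, JNnc_loci0703 at 0.952 under median scaling. Alternatives without organelle values, all those for the weakly read sum, the strongly and weakly read shares with equal loci entered once and the scaled counts of intervals were chosen after seeing the data. No paired analysis was possible because there was 1 library per stage, so leaving one out would leave no comparison. Loci of 2 or 3 reads do not pass the floor of 3 reads, so a difference in listing is not resolved for any 1 of them.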
